A study of Mus musculus with 23 samples.

Results

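The genes described here mark the cells that wrap brain vessels. Of the 34 genes, 18 are mural genes, expressed by pericytes and vascular smooth muscle, and 16 are genes of perivascular fibroblasts. They were chosen by symbol, with earlier results of these data known. All 34 were found among the 24411 genes of the count table, and all 34 passed the filter on low counts in every comparison. Mural cells sit on the outside of the endothelial tube. Pericytes line capillaries, carry the receptor for platelet-derived growth factor B and share a basement membrane with the endothelium and with astrocyte endfeet. Smooth muscle cells ring the arterioles and contract with a dedicated set of actin and myosin proteins, while perivascular fibroblasts lie further out, around the larger vessels, and deposit collagen and small proteoglycans.

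RNA was sequenced from cortical cells of 23 mice, all labelled male, at postnatal day 70, 1 library per mouse, enriched on magnetic beads against the astrocyte antigen ACSA-2. Every mouse was homozygous for a floxed Aldh7a1 gene and received 4-hydroxytamoxifen at postnatal days 3 to 4. ConAstro mice (n = 4) carried no Cre and ate a control diet, and cKOAstro mice (n = 7) also carried 1 Slc1a3-CreER allele, in which the Slc1a3 promoter drives an inducible Cre, on the same diet. The 5 SFN-fed ConAstro mice and the 7 SFN-fed cKOAstro mice had these same genotypes and ate a diet with sulforaphane, an activator of the transcription factor NRF2, from postnatal day 21. Because controls had no Cre, the deletion cannot be told apart from the Cre allele itself.

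Library totals ran from 46890715 to 391701247 reads, with ConAstro between 74771451 and 84049525 and cKOAstro between 107847897 and 391701247. Aldh7a1 was at 207 to 222 CPM (counts relative to the size of the library, with the trimmed mean of M values, TMM, as scaling) in ConAstro and at 45.7 to 77.7 CPM in cKOAstro. It went against the genotype label in SFN-fed ConAstro replicate 1, at 55.2 CPM, and in SFN-fed cKOAstro replicate 2, at 221 CPM. Slc1a3, the gene that carries the CreER allele, went with Aldh7a1 in both libraries, at 2084 and 4410 CPM. In 1 further library, cKOAstro replicate 2, Xist stood at 1536 CPM although all mice are labelled male. Names of 6 libraries begin with Astro and those of the other 17 with 1 of 5 numbers. All 4 ConAstro names begin with 143, the numbered cKOAstro names with 141 or 146, the numbered SFN-fed ConAstro names with 145 or 147 and the numbered SFN-fed cKOAstro names with 143 or 147. In cKOAstro against ConAstro and in SFN-fed ConAstro against ConAstro no prefix is shared, so prefix and group cannot be told apart there, in the numbered libraries alone too, and in SFN-fed cKOAstro against cKOAstro only Astro is shared. The Astro libraries are cKOAstro replicates 2 and 4, SFN-fed ConAstro replicate 1 and SFN-fed cKOAstro replicates 4, 5 and 6. The 12 astrocyte markers summed to between 24066 and 38802 CPM, and 12 oligodendrocyte lineage markers summed to between 22731 and 59532 CPM, so RNA of both cell types was present in every library. Per kilobase of exon and over all libraries, abundant markers included Glul (2380 CPM per kilobase), Aldoc (1058) and Slc1a2 (799.7) of astrocytes, Cnp (905) and Cldn11 (835) of oligodendrocytes, Bsg (276), Slc2a1 (138) and Cldn5 (46.9) of endothelium, C1qa (159) and C1qb (153) of microglia, and Tubb3 (41.2), Camk2a (30.97) and Snap25 (21.02) of neurons. Of these, Bsg and Slc2a1 are also expressed by astrocytes.

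The 34 genes together took 0.127% to 0.326% of the counts in a library. To show a sequence feature of smooth muscle genes, the promoters that RefSeq lists for these genes (GRCm38.p6, 250 bases before to 50 after the start, 23 of 34 genes matched) were searched on both strands for the CArG box, the DNA element that serum response factor binds together with its partner myocardin. A box with only A or T between its CC and GG was found in 3 of the 23 genes (13.0%) and in 488 of 27025 genes with a listed promoter (1.81%). With 1 C or G allowed in the middle, the counts were 5 of 23 (21.7%) and 3050 of 27025 (11.3%). The stretches below hold each match with 10 bases on either side, read in the direction of the gene, and the capitals mark the box. The first of the Myl9 boxes, the first of the Igf2 boxes and the Lama2 box are of the strict form.
Myl9, chr2:156775293-156775322, plus strand, box starting 161 bases before the start: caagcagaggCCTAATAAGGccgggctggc
Myl9, chr2:156775355-156775384, plus strand, 99 bases before: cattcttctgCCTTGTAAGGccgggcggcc
Acta2, chr19:34255438-34255467, minus strand, 84 bases before: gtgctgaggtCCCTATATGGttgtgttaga
Acta2, chr19:34255388-34255417, minus strand, 34 bases before: cgtctttgctCCTTGTTTGGgaagcgagtg
Col1a2, chr6:4505380-4505409, plus strand, 228 bases before: taaagtgcttCCAAACTTGGcaagggcgag
Igf2, chr7:142661407-142661436, minus strand, 155 bases before: cacagttttcCCATTTATGGagtcgccttc
Igf2, chr7:142661380-142661409, minus strand, 128 bases before: ttcgagtcccCCTACTTTGGgccgctcatt
Lama2, chr10:27616962-27616991, minus strand, 39 bases before: aaccaaggacCCTTTAAAGGcccaggcctg
Such a match is a description of the letters and not a sign that a factor binds there. Of the contractile genes introduced below, 4 had a listed promoter and 2 held a box, and of the pericyte genes 8 had one and none of those 8 held a box.

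Levels differed widely among the genes. On a scale of CPM per kilobase of exon, averaged over all libraries, Vtn was highest at 321 ± 70.4 (SD, n = 23). Vtn encodes vitronectin, an adhesive glycoprotein that pericytes secrete. It was followed by Igfbp7 (58.7), Pdgfrb (56.2), Myl9 (50.3) and Rgs5 (44.6), and with SDs of 8.43 to 16.6 these neighbours in the order did not differ beyond their spread. Acta2, the smooth muscle actin, was at 23.9 CPM per kilobase and Myh11, the smooth muscle myosin heavy chain, at 5.40. The highest fibroblast genes were Mgp, an inhibitor of calcification, and the growth factor gene Igf2, at 15.98 and 15.97, with Col1a2 at 6.23, Col1a1 at 4.00 and Dcn at 1.67. The lowest levels were those of Cnn1 (0.208), Ptgfr (0.186) and Myocd (0.0536), the last being the gene for myocardin.

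**Figure D1:**
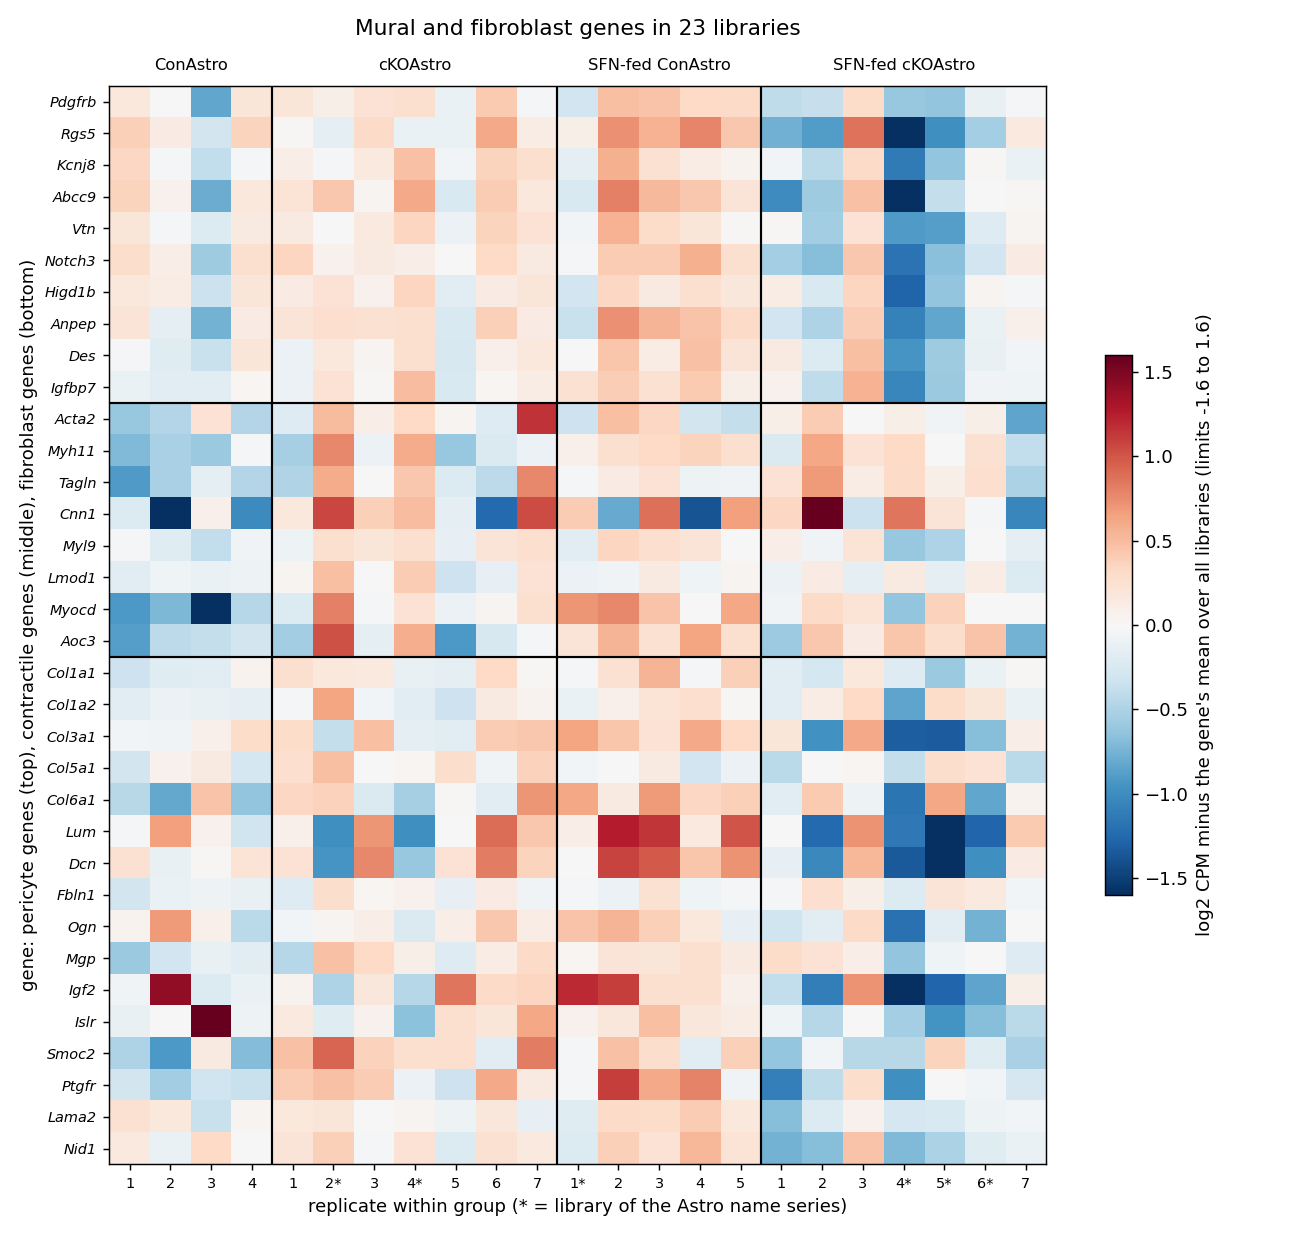
Log2 CPM of the 34 genes (rows) in the 23 libraries (columns, by group), each minus the mean of its gene over all libraries, with red higher and blue lower and asterisks for libraries of the Astro name series. The 10 pericyte genes (top block) were low together in SFN-fed cKOAstro replicates 4 and 5 and of the contractile genes (middle block) Myl9 was low in both, Myocd in replicate 4 alone, and the others in neither.

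The mural genes are described in 2 sets. The sets were drawn after the values were seen, by known role, and are used only for description. Differences between them may partly follow from how they were drawn. The 10 pericyte genes are Pdgfrb, Rgs5, Kcnj8, Abcc9, Vtn, Notch3, Higd1b, Anpep, Des and Igfbp7. The 8 contractile genes are Acta2, Myh11, Tagln, Cnn1, Myl9, Lmod1, Myocd and Aoc3. After the group means were removed, log2 CPM of the 45 pairs of pericyte genes correlated across the 23 libraries with Pearson's r between 0.55 and 0.94 (median 0.82), and none of the 45 was negative. The 28 pairs of contractile genes had a median r of 0.41, and 27 of them were positive. The 21 pairs of contractile genes other than Myl9 had a median r of 0.52, and the 70 pairs of a pericyte gene with such a contractile gene had a median of -0.05. Myl9, a regulatory light chain of myosin, went with the pericyte genes, at r between 0.67 and 0.90. These pairs share their libraries and their scaling.

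Among single pairs, Rgs5 and Notch3, a regulator of G protein signalling and a mural Notch receptor, stood at r = 0.94. Kcnj8 and Abcc9 encode the pore and the regulatory subunit of the vascular ATP-sensitive potassium channel and lie side by side on chromosome 6, at chr6:142564837-142571614 and chr6:142587862-142702315 (GRCm38, GENCODE M21), both on the minus strand, and they stood at r = 0.82. Acta2 and Tagln (transgelin, an actin-binding protein) stood at r = 0.89, and Myh11 and Aoc3 (a surface amine oxidase of smooth muscle) at r = 0.92. The 160 pairs of a pericyte gene with a fibroblast gene had r between -0.41 and 0.79 (median 0.39), and 127 of them were positive. In the fibroblast genes among themselves the median over 120 pairs was lower, at 0.21, and 95 were positive. The strongest of these pairs was Lum with Dcn, at r = 0.92, the genes of the collagen-binding proteoglycans lumican and decorin, at chr10:97565128-97572703 and chr10:97479609-97518143. The chains of collagen I did not go together as closely, with Col1a1 and Col1a2 at r = 0.17, and Dcn stood at 0.76 with Rgs5 and at -0.61 with Aoc3.

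**Figure D2:**
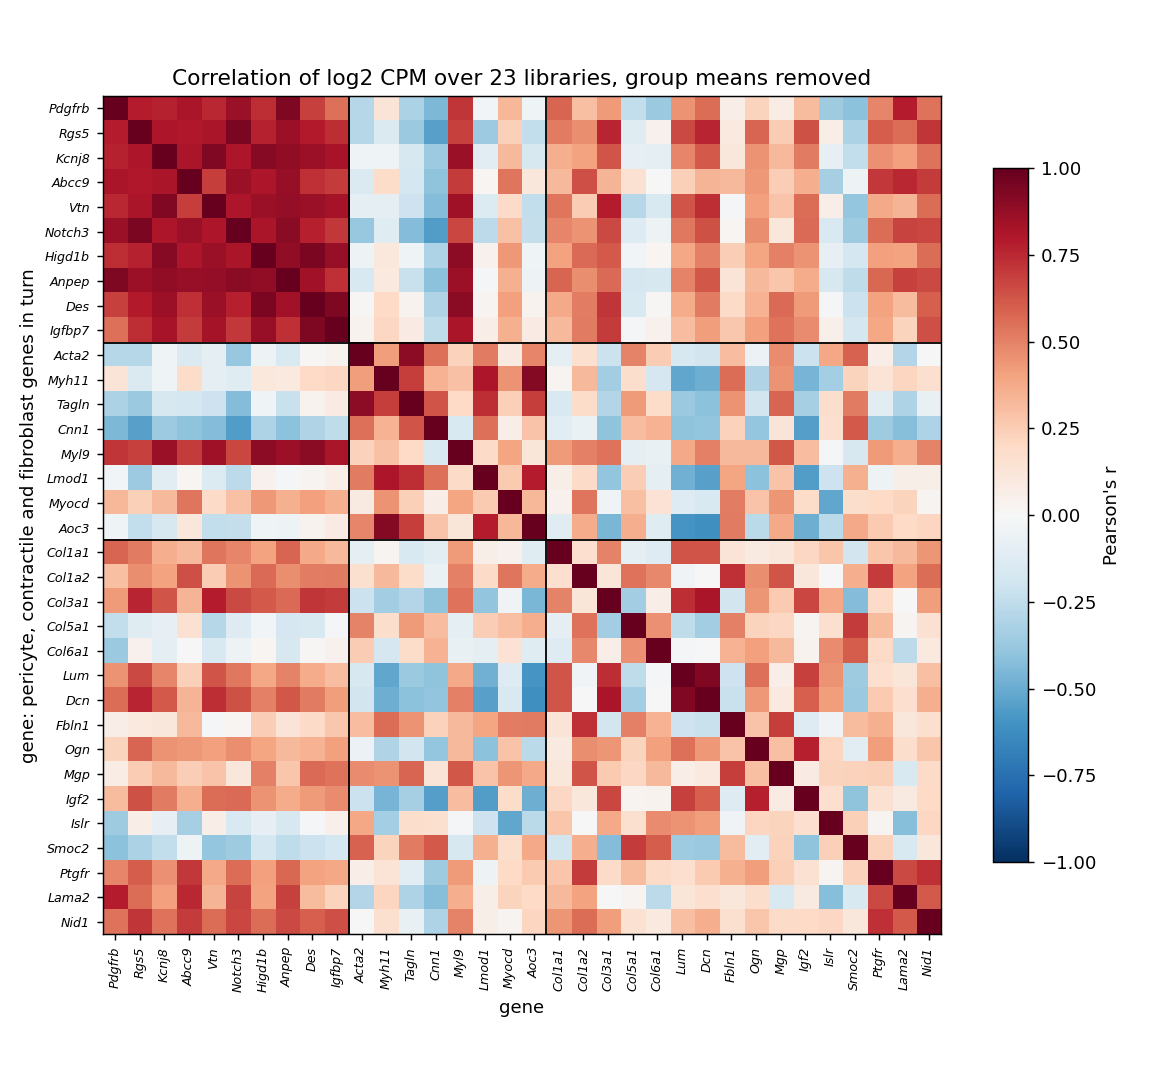
Pearson's r of log2 CPM between each pair of the 34 genes over 23 libraries after group means were removed, on a colour scale from -1 (blue) to 1 (red), with lines between the pericyte, contractile and fibroblast genes. The pericyte block is red throughout, with r between 0.55 and 0.94, and Myl9 is red against it.

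A set of 9 pairs was tested by permuting libraries within groups, 100000 times, with Benjamini-Hochberg adjustment over the 9. Rgs5 and Vtn correlated at r = 0.82 (permutation p = 0.00016, adjusted 0.00072) and Spearman's rho = 0.77 (permutation p = 0.00033, adjusted 0.00148). Without the 2 libraries farthest from the median of Rgs5 the relation held, at r = 0.73 (adjusted permutation p = 0.00774), and within the 17 numbered libraries it was 0.75 (adjusted permutation p = 0.0137). Rgs5 also correlated with Aqp4, the water channel of astrocyte endfeet, at r = 0.90 (permutation p = 1e-05, the smallest these permutations can give, adjusted 9e-05) and rho = 0.75 (permutation p = 0.00025, adjusted 0.00148). For Aqp4 the values were 0.84 without the 2 farthest libraries and 0.83 in the numbered libraries (adjusted permutation p = 0.00135 and 0.00729). The 6 Astro libraries allow 12 arrangements, so that the smallest exact permutation p is 0.0833, and they gave r = 0.75 for Vtn and 0.91 for Aqp4.

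The other 7 pairs did not pass after adjustment. Acta2 and Myh11 stood at r = 0.42 and rho = 0.49 (permutation p = 0.0792 and 0.0225, adjusted 0.119 and 0.0569). Col1a1 and Col3a1 stood at r = 0.50 and rho = 0.42 (permutation p = 0.028 and 0.0622, adjusted 0.063 and 0.112), and Rgs5 and Col1a1 at r = 0.52 and rho = 0.49 (permutation p = 0.026 and 0.0253, adjusted 0.063 and 0.0569). Rgs5 and Acta2 stood at r = -0.29 and rho = -0.36 (permutation p = 0.197 and 0.0931, adjusted 0.222 and 0.14). Acta2 and Col1a1 stood at r = -0.095 and rho = -0.10 (permutation p = 0.68 and 0.668, adjusted 0.68 and 0.668). With Cldn5, a tight junction gene of endothelium, Rgs5 stood at r = 0.39 and rho = 0.19 (permutation p = 0.189 and 0.46, adjusted 0.222 and 0.518) and Col1a1 at r = 0.45 and rho = 0.31 (permutation p = 0.0425 and 0.17, adjusted 0.0765 and 0.219).

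**Figure D3:**
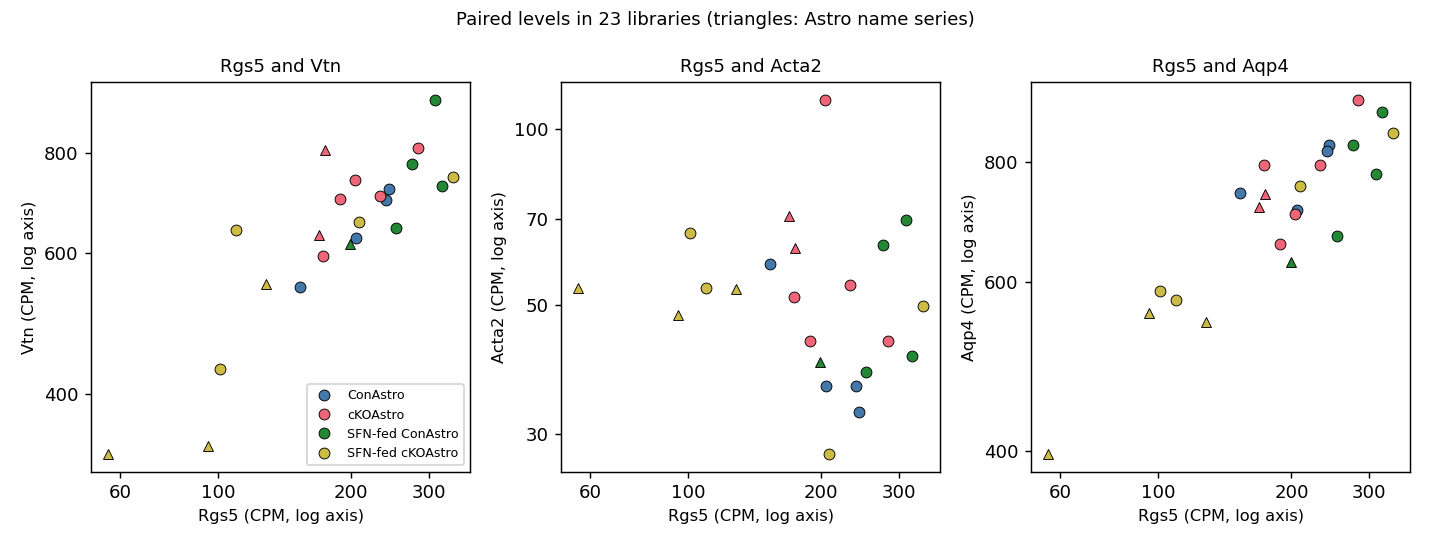
CPM of Rgs5 (horizontal, log axis) against Vtn, Acta2 and Aqp4 (vertical, log axes) in each of 23 libraries, coloured by group, with triangles for the Astro name series. Vtn and Aqp4 rise with Rgs5, at r = 0.82 and 0.90 after group means are removed, and Acta2 shows no such relation (r = -0.29).

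The lowest library of a gene was often the same one. SFN-fed cKOAstro replicate 4 was the lowest of the 23 for 15 of the 34 genes, among them 9 of the 10 pericyte genes, and SFN-fed cKOAstro replicate 5 for 5 fibroblast genes. In replicate 4 Rgs5 stood at 56.4 CPM and in replicate 3 of the same group at 340 CPM, the highest of all libraries. The summed level of the 10 pericyte genes in SFN-fed cKOAstro ran from 802 to 2140 CPM (median 1353), against 1215 to 1900 CPM in ConAstro. The contractile sum ran from 130 to 225 CPM in SFN-fed cKOAstro and from 131 to 154 CPM in ConAstro. In cKOAstro the contractile sum spread more for its size, at 199 ± 47.6 CPM (SD, n = 7), than the pericyte sum, at 1822 ± 193 CPM. Their sum was 7.76% to 21.9% of the pericyte sum in SFN-fed cKOAstro, 6.90% to 12.7% in ConAstro, 7.84% to 14.8% in cKOAstro and 8.80% to 10.5% in SFN-fed ConAstro. In bulk samples, fewer cells of a type and less RNA per cell cannot be told apart.

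**Figure D4:**
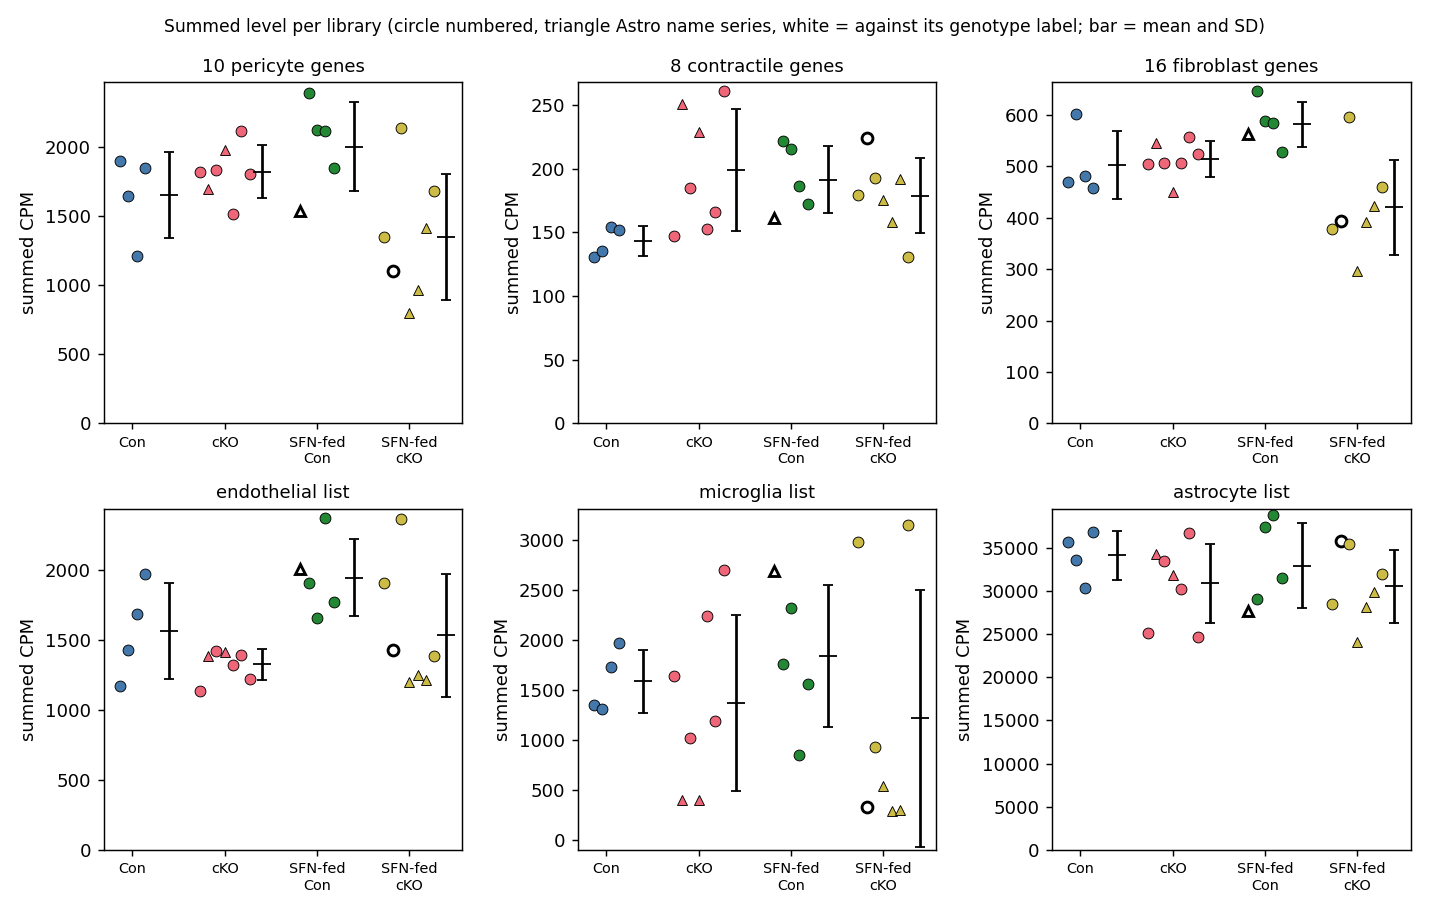
Summed CPM of 3 gene sets of vessel-associated cells and of the endothelial, microglia and astrocyte marker lists in each library, by group, with the mean and SD of each group as a bar. White symbols are the 2 libraries that go against their genotype label and triangles the Astro name series, which hold 2 of the 3 lowest pericyte sums in SFN-fed cKOAstro (802 and 969 CPM).

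Other cell types differed between the name series, not in the same way in each group. In SFN-fed cKOAstro, the 3 Astro libraries against the 4 numbered ones had all 10 pericyte genes lower (median log2 difference -0.60), 6 of 8 contractile genes higher (median 0.13), all 15 endothelial genes lower (median -0.87), all 10 microglia genes lower (median -1.92) and 10 of 12 oligodendrocyte lineage genes higher (median 0.41). In cKOAstro, the 2 Astro libraries against the 5 numbered ones had all 8 contractile genes higher (median 0.55), 8 of 10 pericyte genes higher (median 0.08), 8 of 15 endothelial genes higher (median 0.002) and all 10 microglia genes lower (median -2.28), with 7 of 12 oligodendrocyte lineage genes higher (median 0.03). The 1 Astro library of SFN-fed ConAstro had all 10 pericyte genes lower (median -0.48) and all 10 microglia genes higher (median 0.85) than the mean of the 4 numbered ones, and its microglia sum of 2696 CPM was the highest of its group. The oligodendrocyte sum of 59532 CPM was that of SFN-fed cKOAstro replicate 4. The part of the name series and of other cell types in the comparisons that follow was not tested beyond the values given beside them.

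The first comparison asked what loss of Aldh7a1 did on the control diet. Fitted values of contractile genes were higher in cKOAstro than in ConAstro, in 8 of 8 genes with a median log2 fold change of 0.59, and those of pericyte genes were nearer to 0 (9 of 10 positive, median 0.16). Both sets were drawn after the values were seen. ConAstro has no Astro library, and the contractile sum was 251 and 229 CPM in the Astro libraries of cKOAstro. In the numbered cKOAstro libraries it was 148, 185, 153, 166 and 261 CPM, against 131 to 154 CPM in ConAstro. None of the 34 genes passed an adjusted p of 0.05 in edgeR's quasi-likelihood test (lowest adjusted p 0.981), where 4 of 17406 genes did (0.023%). At an unadjusted p under 0.05, 8 of the 34 were higher (Acta2, Tagln, Myocd, Myl9, Col1a1, Mgp, Smoc2 and Ptgfr) and 0 lower, against 1.71% of all genes higher. DESeq2 and limma-voom called 0 of the 34.

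Myocardin, the product of Myocd, switches on contractile genes. After group means were removed, r of Myocd with the others of that set ran from 0.07 (Cnn1) to 0.45 (Myh11), with Acta2 at 0.09. Myocd stood at 0.162, 0.190, 0.092 and 0.229 CPM in the ConAstro libraries and at 0.274 to 0.570 CPM (median 0.331) in cKOAstro. The groups did not overlap, with a log2 fold change of 1.12 ± 0.30 (SE; edgeR adjusted p = 0.981). Per kilobase Myocd had the lowest level of the 34 genes, and the share of all genes without overlap is not given here. Tagln stood at 10.05, 13.1, 16.97 and 13.6 CPM in ConAstro and at 13.5 to 31.97 CPM (median 18.9) in cKOAstro, overlapping, with a log2 fold change of 0.65 ± 0.26. Acta2 stood at 32.8, 36.3, 58.8 and 36.3 CPM and at 43.3 to 112 CPM (median 54.0), again overlapping, through ConAstro replicate 3. Its log2 fold change of 0.60 ± 0.26 ranged from 0.40 without cKOAstro replicate 7 to 0.82 without ConAstro replicate 3. Smoc2, a matricellular protein gene, stood at 1.34, 1.00, 2.09 and 1.17 CPM in ConAstro and at 1.69 to 3.63 CPM (median 2.46) in cKOAstro, overlapping, with a log2 fold change of 0.89 ± 0.25.

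The pericyte gene Rgs5 differed in this comparison by less than its spread, at 243, 205, 153 and 240 CPM against 169 to 283 CPM (median 189), with a log2 fold change of -0.05 ± 0.16. The median log2 fold change was 0.23 over the mural genes and 0.15 over the fibroblast genes, against -0.007 over all genes. In the numbered libraries alone the medians were 0.15 and 0.25, with 6 genes higher at an unadjusted p under 0.05, against 1.73% of all genes. Endothelial genes went the other way, with 15 of 15 negative and a median of -0.39, as did microglia genes, with 10 of 10 negative and a median of -0.24.

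The same contrast on the sulforaphane diet gave fitted values in the opposite direction. In SFN-fed cKOAstro against SFN-fed ConAstro 31 of 34 genes were lower, with a median log2 fold change of -0.40 over the mural and -0.52 over the fibroblast genes and 0.007 over all genes. Of the sets drawn after the values were seen, the pericyte genes were lower in 10 of 10 (median -0.49) and the contractile genes had a median of -0.07. The 4 leucine-rich repeat genes Lum, Dcn, Ogn and Islr, drawn likewise, were lower in 4 of 4 (median -0.88), which is a description only. None passed in edgeR (lowest adjusted p 0.195), and 0% of the 16672 genes tested did. At an unadjusted p under 0.05, 18 of the 34 were lower, against 8.89% of all genes. DESeq2 called 1 of the 34, Islr, where it called 2.2% of all genes. In limma-voom, with weights for sample quality, 17 passed, where 26.4% of all genes did.

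Rgs5 stood at 199, 310, 275, 321 and 253 CPM in SFN-fed ConAstro and at 56.4 to 340 CPM (median 110) in SFN-fed cKOAstro. The groups overlapped through SFN-fed cKOAstro replicates 3 and 7, and the log2 fold change was -0.87 ± 0.36 (edgeR adjusted p = 0.217). Pdgfrb, the growth factor receptor that keeps pericytes on vessels, stood at 242, 416, 409, 374 and 371 CPM against 193 to 368 CPM (median 232), with a log2 fold change of -0.51 ± 0.18. These groups overlapped through SFN-fed ConAstro replicate 1, which goes against its label. Notch3 stood at 214, 289, 289, 323 and 260 CPM against 96.2 to 293 CPM (median 149), with a log2 fold change of -0.65 ± 0.23. Vtn (-0.48 ± 0.21), Abcc9 (-0.70 ± 0.30), Kcnj8 (-0.41 ± 0.21), Anpep (-0.63 ± 0.24), Des (-0.38 ± 0.20), Igfbp7 (-0.43 ± 0.21) and Higd1b (-0.29 ± 0.23) had the same sign.

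Among the fibroblast genes, Dcn stood at 8.69, 18.4, 17.1, 11.8 and 14.3 CPM in SFN-fed ConAstro and at 2.86 to 12.6 CPM (median 4.40) in SFN-fed cKOAstro, with a log2 fold change of -1.13 ± 0.36 (edgeR adjusted p = 0.195). Lum stood at 1.95, 4.33, 4.01, 2.01 and 3.64 CPM against 0.552 to 2.97 CPM (median 0.811), with a log2 fold change of -1.15 ± 0.43. Both overlapped, with 5 of 7 libraries labelled SFN-fed cKOAstro under every library labelled SFN-fed ConAstro, and these labels include both libraries whose Aldh7a1 goes against them. Islr, a secreted leucine-rich repeat protein gene, stood at 12.9, 14.02, 17.3, 14.04 and 13.4 CPM against 6.38 to 12.3 CPM (median 9.02), with no overlap and a log2 fold change of -0.63 ± 0.16. That lack of overlap is a description only, as the share of all genes without overlap is not given here. Igf2 stood at 181, 171, 95.1, 95.2 and 84.3 CPM against 21.5 to 131 CPM (median 44.2), with a log2 fold change of -1.08 ± 0.40. Col3a1 (-0.75 ± 0.32), Ptgfr, a prostaglandin receptor gene (-0.85 ± 0.28), the basement membrane genes Nid1 (-0.54 ± 0.21) and Lama2 (-0.41 ± 0.12) and Col1a1 (-0.39 ± 0.13) had the same sign. Fbln1 (0.05 ± 0.09), Col5a1 (-0.03 ± 0.15), Col1a2 (-0.09 ± 0.16) and Acta2 (-0.01 ± 0.20) were near 0.

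The number of calls depended on the tool, as given above, and on the libraries kept. Without SFN-fed cKOAstro replicate 3, which held high values of these genes, 7 of the 34 passed in edgeR (Pdgfrb, Rgs5, Notch3, Dcn, Igf2, Islr and Nid1), where 4.22% of all genes did. That library is the only SFN-fed cKOAstro one with the prefix 147, which 2 SFN-fed ConAstro libraries hold. Its pericyte sum was 2140 CPM, against 2116 and 1851 CPM in those 2. Without it no numbered prefix is shared, so prefix and genotype cannot be told apart in the numbered libraries left. Without the 2 libraries that go against their label none passed, the medians were -0.41 and -0.54, and 12 genes were lower at an unadjusted p under 0.05, against 5.92% of all genes. In the numbered libraries alone the medians were -0.26 and -0.42 with 9 such genes (5.2% of all genes), and with the name series as a covariate -0.34 and -0.49 with 16 (6.99%). Endothelial genes were lower too, 14 of 15 with a median of -0.68, and so were 10 of 10 microglia genes (median -0.54), while 9 of 12 oligodendrocyte lineage genes were higher (median 0.24).

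Sulforaphane feeding was compared within each genotype. In SFN-fed ConAstro against ConAstro 33 of the 34 genes were higher, with a median log2 fold change of 0.36 over the mural and 0.31 over the fibroblast genes and -0.005 over all genes. The contractile genes had a median of 0.62 and the pericyte genes of 0.34. None passed in edgeR (lowest adjusted p 0.732), and 0% of 16509 genes did. At an unadjusted p under 0.05, 17 of 34 were higher, against 3.54% of all genes. DESeq2 called 4 of the 34, Myh11, Aoc3, Igfbp7 and Mgp, where it called 0.139% of all genes, and limma-voom called 0.

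Myh11 stood at 24.1, 27.6, 26.04 and 38.4 CPM in ConAstro and at 41.6, 47.2, 49.2, 50.4 and 46.9 CPM in SFN-fed ConAstro, with a log2 fold change of 0.70 ± 0.13 (edgeR adjusted p = 0.732). Aoc3 stood at 1.64, 2.26, 2.31 and 2.46 CPM and at 3.50, 4.41, 3.60, 4.69 and 3.63 CPM, with a log2 fold change of 0.87 ± 0.16. Igfbp7, a secreted vascular protein gene, stood at 64.3, 61.3, 61.4 and 70.5 CPM and at 81.8, 90.4, 81.6, 92.3 and 73.9 CPM, with a log2 fold change of 0.39 ± 0.07. In all 3 genes, which DESeq2 called, every SFN-fed library was above every ConAstro library. The share of all genes without overlap is not given here, so this is a description only. Mgp, with 12.3, 15.004, 17.1 and 16.4 CPM against 19.02, 21.5, 21.3, 22.2 and 20.6 CPM, did not overlap either, and its log2 fold change was 0.46 ± 0.10. Myocd had the largest fitted value of the 34, at 1.48 ± 0.31, with SFN-fed libraries at 0.530, 0.557, 0.445, 0.323 and 0.499 CPM. Islr, at -0.50 ± 0.40, was the 1 gene that was lower, with ConAstro replicate 3 at 45.2 CPM and the other 3 between 11.4 and 12.4 CPM. Without that library its value was 0.27, on the other side of 0.

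Myh11 passed in edgeR without ConAstro replicate 4, as the 1 gene of 16638 that did (0.00601%), and no other omission of 1 library gave a call here. Without SFN-fed ConAstro replicate 1, which is both the Astro library of this group and the one against its label, the medians were 0.42 and 0.31 with 19 genes higher at an unadjusted p under 0.05, against 3.97% of all genes. Endothelial genes were higher as well, 15 of 15 with a median of 0.57, and so were 10 of 10 microglia genes (median 0.17). Pdgfb, the growth factor that endothelium presents to pericytes, was among the mural signalling genes and rose in DESeq2 by 0.77 on the log2 scale (DESeq2 adjusted p = 0.0179, edgeR adjusted p = 0.762). Its ConAstro libraries held 15.2, 17.9, 23.5 and 29.9 CPM and the SFN-fed ones 37.6, 37.95, 37.9, 37.1 and 33.97 CPM, with no overlap. Here too the share of all genes without overlap is not given.

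In SFN-fed cKOAstro against cKOAstro 29 of 34 genes were lower, with medians of -0.27 over the mural and -0.39 over the fibroblast genes and 0.006 over all genes. The pericyte genes were lower in 10 of 10 (median -0.41) and the contractile genes were divided, 4 positive and 4 negative. None passed in edgeR (lowest adjusted p 0.459), and 0% of 16903 genes did, with 0 of the 34 in DESeq2 or limma-voom. At an unadjusted p under 0.05, 12 were lower (Pdgfrb, Kcnj8, Abcc9, Vtn, Notch3, Anpep, Col1a1, Islr, Smoc2, Ptgfr, Lama2 and Nid1), against 5.5% of all genes.

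Pdgfrb stood at 277 to 398 CPM (median 341) in cKOAstro, with 5 of 7 SFN-fed cKOAstro libraries under that range, and a log2 fold change of -0.38 ± 0.14. Vtn stood at 595 to 812 CPM (median 707) against 337 to 747 CPM (median 549), overlapping, with a log2 fold change of -0.42 ± 0.17. Smoc2 had a log2 fold change of -0.69 ± 0.19. In the numbered libraries alone the medians were -0.07 and -0.26 with 3 genes lower at an unadjusted p under 0.05, against 6.95% of all genes. Without the library that goes against its label they were -0.29 and -0.36 with 5 such genes (3.9% of all genes), and 14 were lower with the name series as a covariate (5.34%). Endothelial genes stood on the other side of 0, 15 of 15 positive with a median of 0.28, and so did 10 of 12 oligodendrocyte lineage genes (median 0.30), while 7 of 10 microglia genes were negative (median -0.19).

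**Figure D5:**
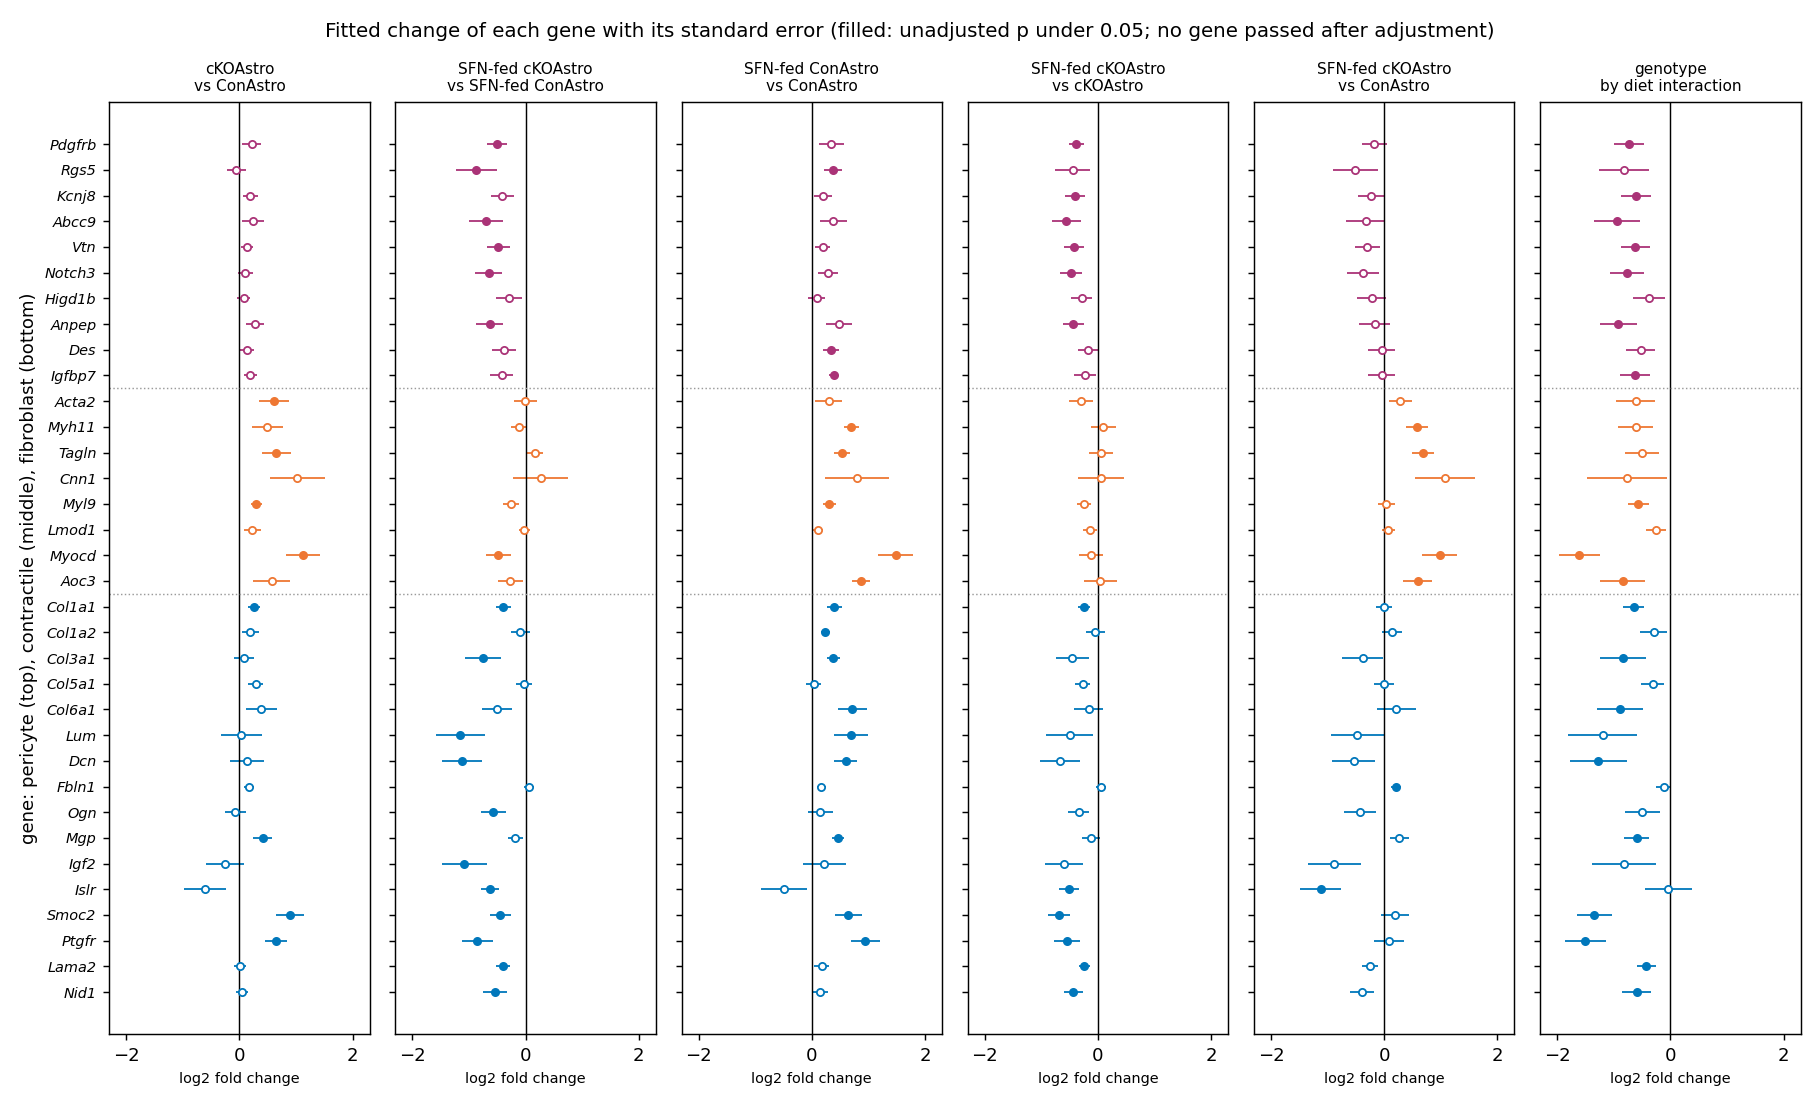
Fitted log2 fold change of each of the 34 genes (points) with its SE (bars) in the 5 comparisons of 2 groups and in the interaction, with filled points for an unadjusted edgeR p under 0.05. The points lie mostly to the right of 0 for cKOAstro against ConAstro and SFN-fed ConAstro against ConAstro (30 and 33 of 34) and to the left for SFN-fed cKOAstro against SFN-fed ConAstro and against cKOAstro (31 and 29 of 34), and for SFN-fed cKOAstro against ConAstro the contractile genes lie to the right and the pericyte genes to the left. The contractile and pericyte sets were drawn after the values were seen.

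SFN-fed cKOAstro against ConAstro asked how far treated knockouts stood from untreated controls. The contractile genes were higher in 8 of 8 (median log2 fold change 0.59) and the pericyte genes lower in 10 of 10 (median -0.22). As both sets were drawn after the values were seen, this split is a description only. None of the 34 passed in edgeR (lowest adjusted p 0.557), and 0% of 16753 genes did. At an unadjusted p under 0.05, 5 were higher (Myh11, Tagln, Aoc3, Myocd and Fbln1) against 4.01% of all genes, and 1 was lower, Islr, against 4.66%. DESeq2 called 0 of the 34, and limma-voom called Tagln, where it called 3.92% of all genes.

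Tagln stood at 13.3 to 30.3 CPM (median 22.1) in SFN-fed cKOAstro, where 6 of 7 libraries were above all 4 ConAstro libraries, with a log2 fold change of 0.69 ± 0.19 (edgeR adjusted p = 0.557). Myh11 stood at 29.96 to 60.4 CPM (median 46.4), overlapping ConAstro through its replicate 4, with a log2 fold change of 0.58 ± 0.19. Rgs5 had a log2 fold change of -0.51 ± 0.40 and Vtn of -0.30 ± 0.22. The value of Islr, -1.12 ± 0.36, was -0.35 without ConAstro replicate 3. Medians over the mural and fibroblast genes were -0.05 and -0.12, and in the numbered libraries alone 0.12 and 0.004, on the other side of 0, with 5 genes higher at an unadjusted p under 0.05 (1.44% of all genes). Without the library that goes against its label 3 were higher and 1 lower, against 2.9% and 2.57% of all genes. Within the libraries named 143, the 1 prefix that both groups hold, the medians were 0.01 and -0.20, with 3 genes higher (4.7% of all genes) and 1 lower (3.84%). Microglia genes were lower in 10 of 10 (median -0.40) and endothelial genes in 10 of 15 (median -0.10), and oligodendrocyte lineage genes were higher in 10 of 12 (median 0.28) and neuron genes in 9 of 10 (median 0.26).

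The interaction asked whether the genotype contrast differed between diets, in 1 model over all 23 libraries. All 34 fitted terms were negative, with a median of -0.62 over the mural and -0.62 over the fibroblast genes and -0.004 over all genes. None passed in edgeR (lowest adjusted p 0.673), and 0% of 17302 genes did. DESeq2 and limma-voom called 0 of the 34. At an unadjusted p under 0.05, 19 of 34 were negative, against 2.96% of all genes. The largest terms were those of Myocd (-1.61 ± 0.36), Ptgfr (-1.503 ± 0.36), Smoc2 (-1.35 ± 0.31) and Dcn (-1.27 ± 0.50). Without the 2 libraries against their label the medians were -0.75 and -0.65 with 19 negative at an unadjusted p under 0.05 (3.04% of all genes), and in the numbered libraries alone -0.48 and -0.51 with 14 (4.53%). The terms of endothelial genes were negative in 14 of 15 (median -0.29) and those of microglia genes in 10 of 10 (median -0.35), and those of oligodendrocyte lineage genes were positive in 9 of 12 (median 0.24). The comparisons of 2 groups and the interaction share their libraries, so their signs are not separate evidence.

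Other genes of these cells and pathways gave counts of the same kind. Their lists were also fixed with earlier results of these data known, so their counts are not separate evidence. In SFN-fed cKOAstro against SFN-fed ConAstro, 22 of 23 tested genes of a further list of 24 mural and fibroblast genes were lower (median -0.62, 15 at an unadjusted p under 0.05, against 8.89% of all genes). Some genes of that list are also on the oligodendrocyte lineage list, and the mural signalling list overlaps with the endothelial list. DESeq2, which called 2.2% of all genes, called 2 of the 23, Serping1, a complement inhibitor (-0.64, adjusted p = 0.0272), and Fmod, fibromodulin (-0.89, adjusted p = 0.0263), both at an edgeR adjusted p of 0.195. Mcam, the most abundant per kilobase (64.4 CPM per kilobase), was at -0.15 ± 0.25, with SFN-fed cKOAstro replicate 4 at 387 CPM, the highest of all libraries. Atp13a5, a pericyte transporter gene, was at -0.74 ± 0.25 and Ndufa4l2 at -0.48 ± 0.22. Of 21 matrix partner subunits 18 were lower (median -0.42, 10 at an unadjusted p under 0.05, against the same 8.89%), and DESeq2 called 2, Col6a3 (-0.81, adjusted p = 0.0343) and Hspg2, perlecan (-0.73, adjusted p = 0.0405). The more abundant Sparc (0.07 ± 0.17), Lamb2 (-0.23 ± 0.11) and Col4a1 (-0.33 ± 0.21) did not pass in either tool. Of 22 mural signalling genes 19 were lower (median -0.48), among them Notch1 (-0.35 ± 0.14), and Hey1 (-0.03 ± 0.09) and Srf, serum response factor (-0.17 ± 0.10), were nearer to 0.

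In cKOAstro against ConAstro the same lists had 16 of 23, 7 of 21 and 11 of 22 genes higher, with medians of 0.14, -0.09 and 0.02. In SFN-fed ConAstro against ConAstro they had 19 of 23, 16 of 21 and 20 of 22 higher, with medians of 0.34, 0.21 and 0.25. Across the other cell types, 10 neuron genes had medians of 0.31, 0.05 and 0.22 in the control diet genotype, SFN-fed genotype and control sulforaphane comparisons, and 12 oligodendrocyte lineage genes of 0.01, 0.24 and 0.05. The 12 astrocyte genes had medians of -0.02, -0.01 and -0.07. Of 5 red blood cell genes only Alas2 passed the filter, at 0.498 to 18.9 CPM, and the 4 globin genes were listed at 0 in every library.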

How the data were processed

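Raw read counts per gene were used as the authors deposited them, 1 column per library. Per the submitters' processing notes and the study's methods, reads were checked with FastQC and aligned to mm10 with STAR, whose gene counts were taken without normalization or pooling. The STAR version, the annotation and the counting strand are not given in the sources used here, so the values of 12 of the 34 genes with exons that overlap another gene (Abcc9, Col3a1, Col5a1, Des, Igf2, Igfbp7, Islr, Lama2, Nid1, Notch3, Ptgfr and Tagln) are uncertain. Libraries were grouped by title. No pair of replicates agreed within counting noise (lowest chi-square per degree of freedom 42.4). The p-values measure the spread between libraries of a group, each from its own mouse, including both name series and the libraries against their label. Per the study's methods diets were assigned by cage. The sample labels name no cage, so the tests treat mice of the same cage as independent.

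Counts were tested with edgeR 4.0.16 (limma 3.58.1, R 4.3.3): filterByExpr (minimum count 10, minimum total 15), TMM scaling and quasi-likelihood tests on the groups compared, all 4 for the interaction, with Benjamini-Hochberg adjustment over all genes at 0.05. The scripts were tested on simulated data. Standard errors are the fold change over the root of the F statistic, and log2 CPM has a prior count of 2. DESeq2 1.42.0 and limma-voom with sample quality weights were alternatives, beside other scaling and filtering, all groups in 1 fit, the replicate block, the name series and omitted libraries. Permutations used numpy 2.4.6 on Python 3.11.15. The genes named are all 34, Aldh7a1, Slc1a3, the genes of the tested pairs and, from the other lists, those past the threshold in edgeR or DESeq2 and the 3 most abundant of each list per kilobase, of which some are not reported here. The 34 genes and all lists were chosen with earlier results of these data known, and the pericyte, contractile and leucine-rich repeat sets after their values were seen.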

Additional observations from a re-analysis of the deposited data

Results flagged for a closer look

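Of 136 combinations of a gene and a group, 11 had 1 library far from the rest of its group, where chance alone gives about 1 in 20 (6.8). Each was marked because the gap between that library and its nearest neighbour took up most of the range of the group. ConAstro replicate 3 stood apart in 3 genes, with Acta2 at 58.8 CPM and Islr at 45.2 CPM above the rest and Higd1b at 13.9 CPM below. ConAstro replicate 2 was high in Igf2, at 212 CPM. In cKOAstro, replicate 7 was high in Acta2, at 112 CPM, and replicate 2, the library with Xist at 1536 CPM, was high in Myocd, at 0.570 CPM, and in Col1a2, at 118 CPM. In SFN-fed ConAstro, replicate 1 was low in Pdgfrb, at 242 CPM, and goes against its genotype label, and replicate 3 was high in Fbln1, at 53.7 CPM, and in Islr, at 17.3 CPM. SFN-fed cKOAstro replicate 3 was high in Nid1, at 85.6 CPM.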

How the results depend on the processing

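The number of the 34 genes past the threshold was 0 in all 6 comparisons in edgeR and moved under few alternatives. In SFN-fed cKOAstro against SFN-fed ConAstro it was 1 in DESeq2, 17 in limma-voom and 0 to 7 with 1 library left out, with 7 only without SFN-fed cKOAstro replicate 3. In SFN-fed ConAstro against ConAstro it was 4 in DESeq2 and 0 to 1 with 1 library left out, and in SFN-fed cKOAstro against ConAstro it was 1 in limma-voom. The cause was not tested. Single values were recomputed for the 92 combinations of gene and comparison that were at an unadjusted p under 0.05 or are given above without being so. Of their 2020 values under alternatives, 31 passed the threshold where the reported value did not and 19 changed sign, all in 5 combinations given above that were not at such a p. Rgs5 in cKOAstro against ConAstro was 0.049 in the numbered libraries and -0.18 to 0.022 with 1 library left out. Islr in SFN-fed ConAstro against ConAstro was 0.10 in limma-voom and -0.70 to 0.27 with 1 library left out, positive only without ConAstro replicate 3. In SFN-fed cKOAstro against SFN-fed ConAstro, Acta2 was 0.10 in limma-voom, 0.14 with the replicate block, 0.018 with the name series and -0.092 to 0.14 with 1 library left out. There Col1a2 was 0.00091 in limma-voom and -0.15 to 0.0049 with 1 left out, and Col5a1 was 0.059 and -0.094 to 0.029. Over all 204 combinations, 129 of 4386 values changed sign, in 39 combinations. The restriction to the name prefix 143 was chosen after seeing the data. The name series was run as a covariate only where both groups held both kinds of library, and not in the comparisons with ConAstro, which has no Astro library, or in the interaction.

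Deviations of same-numbered libraries from their group means had correlations of -0.22 to 0.34, under 0.1 for most pairs. Differently numbered libraries were not set beside them, so these values cannot decide whether the numbers pair mice. With the replicate block 0 of the 34 genes passed in each comparison of 2 groups and in the interaction, and the medians in SFN-fed cKOAstro against SFN-fed ConAstro were -0.48 over the mural and -0.55 over the fibroblast genes.

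Among the correlations, the 6 Astro libraries alone gave r = 0.75 for Rgs5 with Vtn and 0.91 with Aqp4, which so few libraries cannot take past the threshold, 0.94 for Acta2 with Col1a1 and -0.46 for Rgs5 with Cldn5, both with the opposite sign. Without the 2 farthest libraries Rgs5 with Col1a1, at 0.52, passed and Acta2 with Col1a1 was 0.0815. Without centring on group means Col1a1 with Col3a1 (0.64), Rgs5 with Col1a1 (0.64), Rgs5 with Cldn5 (0.45) and Col1a1 with Cldn5 (0.47) passed, and Acta2 with Col1a1 was 0.0813, where its reported value was -0.095. Depth limits the rarest genes most: Cnn1, Myocd and Ptgfr lie near or below 1 CPM.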
